A study of Mus musculus with 194 samples.

Results

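Transposon insertions recorded in the cortex of Syn1Cre mice were compared with those recorded in the cortex of GFAPCre mice. The comparison rests on 12 of the 47 tables deposited for the series, 6 from each group, chosen by group name and read as 1 animal each, with the Frontflip GFAPCre animals left out. Mice of both groups had been injected with adeno-associated virus (AAV) on postnatal day 0 to 1, and each cortex was divided into 10 parts before RNA was isolated. The insertions were read from RNA with self-reporting transposons, which carry a promoter that transcribes into the flanking genome so that the junction can be sequenced. Syn1Cre is a name used for mice in which the neuronal synapsin 1 promoter drives Cre recombinase. GFAPCre is a name used for mice in which the promoter of the glial filament gene Gfap drives it, and some lines of that kind also act in progenitors that give rise to neurons. The labels name neither the exact lines, the viral constructs nor the age at dissection. The controls used beside the comparison were 6 Cre-negative cortices named for each line, Syn1CreNeg and GFAPCreNeg, from mice injected on the same days.

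Calling cards record where a transposase has been. The piggyBac transposase inserts at the bases TTAA, and without a fused DNA-binding protein it is known to favour active enhancers, so that insertions gather at genes whose regulatory regions are active in the recorded cells. The cerebral cortex holds glutamatergic projection neurons, born locally and ordered in layers, and GABAergic interneurons, which are born in the ganglionic eminences under Dlx transcription factors and migrate in. Interneurons of the medial eminence depend on Lhx6 and mature into somatostatin and parvalbumin cells, while those of the caudal eminence include the Vip cells and use Nr2f2, Sp8 and Prox1. Astrocytes arise from radial glia that express Pax6, Emx2 and nuclear factor I genes, and clear glutamate with the transporter encoded by Slc1a3.

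Insertions on chromosomes 1 to 19 numbered from 432664 to 1332946 per Syn1Cre animal and from 585792 to 1468600 per GFAPCre animal. The means, 907872 ± 335245 and 846031 ± 334304 insertions (SD, n = 6 each), did not differ beyond the spread between animals (ratio of geometric means 1.06, exact two-sided permutation test, p = 0.777). Between 37.3% and 44.5% of insertions rested on 1 read in Syn1Cre animals 1 to 3, against 10.0% to 15.1% in Syn1Cre animals 4 to 6 and 5.64% to 16.6% in the GFAPCre animals. The sequencing pools named in the labels hold Syn1Cre or GFAPCre animals but never both. Pool and group therefore cannot be told apart. Syn1Cre animal 5, with the fewest insertions of the 12, stood apart from the other Syn1Cre animals at astroglial genes. Results that rest on it are given with and without that animal. Levels are given as CPM, the insertions at a locus over all autosomal insertions of the animal, per 1000000, after TMM scaling, unless another scale is named.

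The library labels were first checked at 4 markers, Dlx1 and Gad2 of GABAergic neurons, Sst of somatostatin interneurons and Slc1a3 of astrocytes. A locus was counted as a gene body with 10 kb on each side. The Dlx1 locus (GRCm38 chromosome 2, 71528113 to 71533981) held 351, 324, 303, 302, 429 and 368 CPM in Syn1Cre animals 1 to 6 and 53.0, 49.4, 60.9, 71.4, 78.1 and 50.5 CPM in GFAPCre animals 1 to 6. The groups lay far apart there. The Gad2 locus (chromosome 2, 22621015 to 22693877), which encodes the synaptic form of the GABA-making enzyme, held 42.6, 39.2, 63.4, 39.1, 31.0 and 61.1 CPM in Syn1Cre against 13.8, 12.3, 10.4, 8.77, 20.8 and 7.66 CPM in GFAPCre. The Sst locus (chromosome 16, 23889573 to 23891342) held 31.4, 39.2, 47.0, 50.8, 45.3 and 70.0 CPM in Syn1Cre against 4.24, 6.17, 10.4, 5.01, 1.73 and 12.2 CPM in GFAPCre. At all 3 neuronal markers every Syn1Cre animal lay above every GFAPCre animal. In whole cortex, more cells of a type and more insertions per cell cannot be told apart.

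The Slc1a3 locus (chromosome 15, 8634124 to 8710807) gave a different picture. It held 569, 306, 728, 643, 390 and 420 CPM in GFAPCre animals 1 to 6, and 147, 229, 187, 278, 815 and 277 CPM in Syn1Cre animals 1 to 6. Syn1Cre animal 5 had the highest value of the 12, and the other 5 Syn1Cre animals lay below every GFAPCre animal. As Syn1Cre over GFAPCre, the log2 fold change was -0.71 ± 0.28 (SE), with an adjusted p of 0.18, and without Syn1Cre animal 5 it was -1.18, with an adjusted p of 3.1e-05. At the neuronal markers that animal stayed with its group, with the highest Syn1Cre value at Dlx1, the lowest at Gad2 and one inside the range of the others at Sst.

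**Figure D1:**
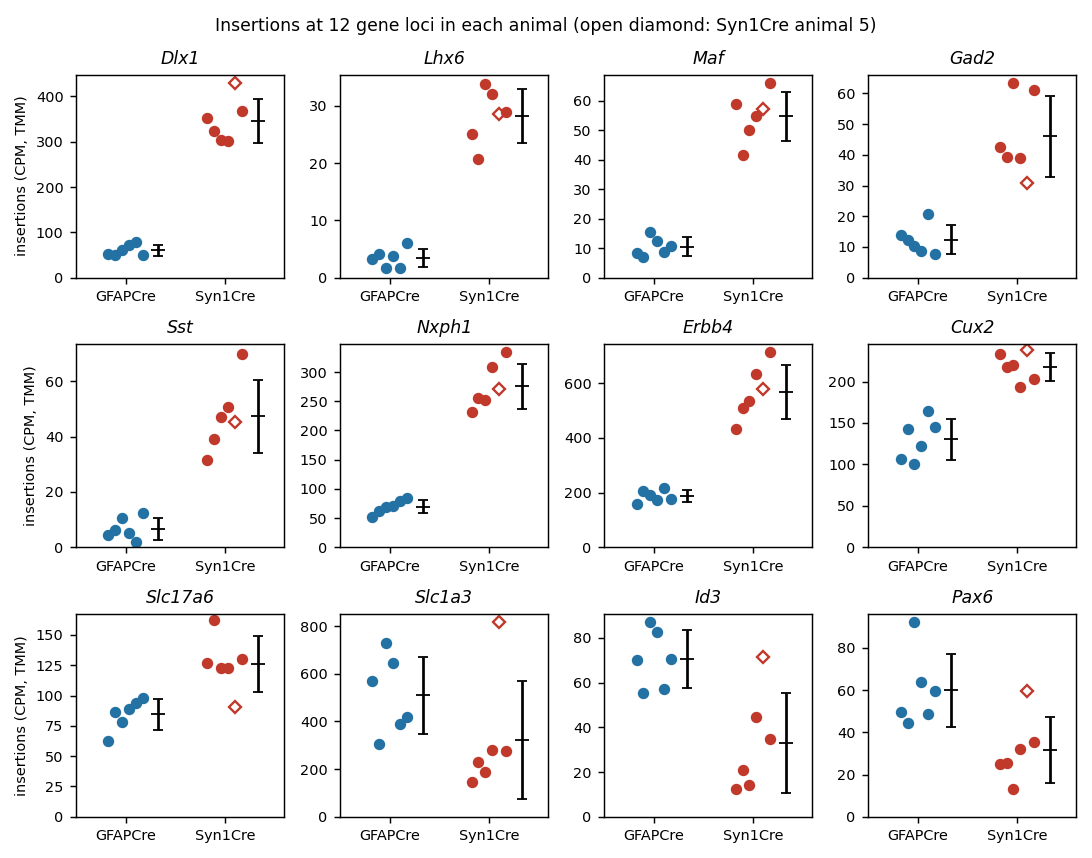
Insertions (CPM after TMM scaling) at 12 gene loci, 1 point per animal, 6 GFAPCre (blue) and 6 Syn1Cre (red) animals, with mean ± SD beside each group. The groups do not overlap at Dlx1, Lhx6, Maf, Gad2, Sst, Nxph1, Erbb4 and Cux2, and Syn1Cre animal 5 (open diamond) lies among or above the GFAPCre animals at Slc1a3, Id3 and Pax6.

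Levels in the Cre-negative cortices were measured in the same way, here as CPM without TMM scaling. At Dlx1 the Cre-negative animals ranged from 43.6 to 95.7 in Syn1CreNeg and from 58.3 to 84.8 in GFAPCreNeg, close to the 49.0 to 75.0 of GFAPCre and below the 290 to 416 of Syn1Cre. The neuronal sums did not all behave so. Over 4 loci of GABA synthesis and transport, Syn1CreNeg held 103 to 252, which spans the 166 to 213 of Syn1Cre, and GFAPCreNeg 124 to 163, against 83.7 to 122 in GFAPCre. Over 17 loci of ganglionic eminence factors, Syn1CreNeg held 4271 to 4753 and GFAPCreNeg 3946 to 4948, between and overlapping the 3053 to 4386 of GFAPCre and the 4820 to 6453 of Syn1Cre. The summed level over the 24 astrocyte loci tested was 1871 to 3665 in GFAPCre, 4794 to 6691 in Syn1CreNeg and 3554 to 7181 in GFAPCreNeg. It was 1488 to 1978 in Syn1Cre animals other than animal 5, which held 4502. The GFAPCre animals thus had a smaller share of their insertions at astrocyte loci than every Syn1CreNeg animal. Syn1Cre animal 5 fell inside the GFAPCreNeg range. The Cre-negative animals held fewer insertions in all, 95188 to 542788 in Syn1CreNeg and 202904 to 582884 in GFAPCreNeg, so these are shares and not numbers of insertions. Over the 19 loci of astroglial progenitor factors the ranges were 6860 to 13585 in GFAPCre, 6076 to 7860 in Syn1Cre without animal 5, which held 14635, 15062 to 21256 in Syn1CreNeg and 12469 to 22464 in GFAPCreNeg. The astrocyte sums of GFAPCre animals 1 to 6 were 2966, 1871, 3665, 3217, 2184 and 2158, and their insertions numbered 943117, 1468600, 585792, 812849, 600388 and 665439. The animal with the most insertions had the lowest sum and that with the fewest the highest, but those between did not follow this order. With every animal thinned to 432664 insertions, 0 astrocyte loci and 1 progenitor locus were called lower, beside 44 of all 7853 loci tested. The log2 change at Slc1a3 was -0.67. Before thinning, 0 astrocyte loci and 3 progenitor loci were called lower, so the astrocyte count could not fall. Random thinning keeps each animal's shares on average, so it cannot show whether the shares follow the number of insertions.

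**Figure D2:**
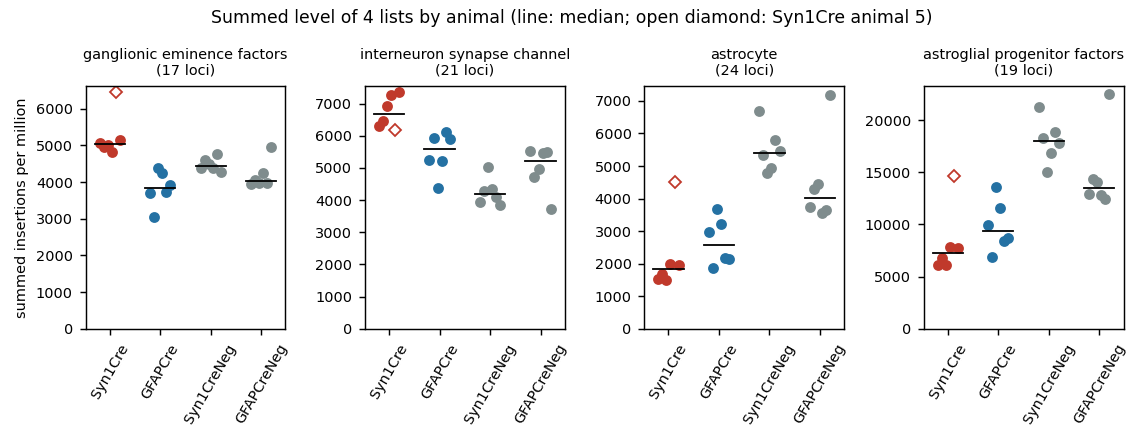
Summed CPM (no TMM scaling) over the tested loci of 4 lists, 1 point per animal in the 2 Cre groups and the 2 Cre-negative groups. For the 24 astrocyte loci the medians are 1830 in Syn1Cre, 2575 in GFAPCre, 5389 in Syn1CreNeg and 4017 in GFAPCreNeg, with Syn1Cre animal 5 (open diamond) at 4502.

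Across the genome, 251 of 11278 gene loci tested (2.23%) differed between the groups at an adjusted p under 0.05 (edgeR's quasi-likelihood test with Benjamini-Hochberg adjustment). Of these, 144 were higher in Syn1Cre (1.28% of loci tested) and 107 lower (0.949%), and over all loci the median log2 change was 0.00. The 6 animals of each group did not overlap at 85 of the higher loci (0.754% of those tested) and at 35 of the lower (0.31%). Neighbouring loci can share insertions, and the 144 higher loci formed 131 separate stretches and the 107 lower ones 103. In 50 kb windows, 643 of 22000 (2.92%) differed, 346 of them higher (1.57%) and 297 lower (1.35%). Among those windows, 72.8% of the higher and 60.3% of the lower overlapped a protein-coding gene body, against 79.2% of all windows tested. A gene locus that was called higher was touched by 159 of the higher windows, and one called lower by 93 of the lower windows.

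The higher and lower calls did not rest equally on the animals. Without Syn1Cre animal 5, all 251 loci were still called and the count rose to 816, with 281 higher (2.42%) and 535 lower (4.6%). With Syn1Cre animals 1 to 3 alone, 1569 loci were called, 533 higher (4.38%) and 1036 lower (8.51%), and with animals 4 to 6 alone 72, of which 65 were higher (0.549%) and 7 lower (0.0591%). Without Syn1Cre animals 1, 2 or 3 the count was 147, 132 or 148, without GFAPCre animal 1 it was 133 and without GFAPCre animal 4 it was 153. The sign at each of the 251 loci was the same in all of these fits.

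**Figure D3:**
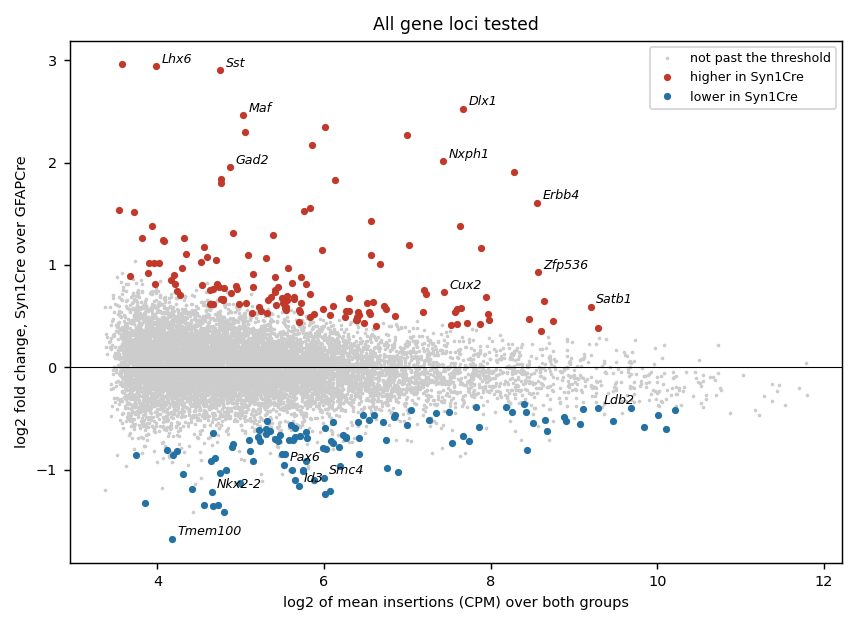
Each of the 11278 gene loci tested by mean insertions (x axis, log2 CPM) and log2 fold change of Syn1Cre over GFAPCre (y axis), with the 144 higher loci in red and the 107 lower loci in blue. Loci of interneuron genes such as Lhx6, Sst and Dlx1 lie near the top, with log2 fold changes of 2.94, 2.90 and 2.53, while the lowest of all loci tested is at -1.67.

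Many but not all transcription factors of the ganglionic eminences and of interneuron maturation rose in Syn1Cre. Of 26 listed genes 17 could be tested, and 9 were higher and none lower, beside 1.28% of all loci higher, with a median log2 fold change of 0.59 over the 17. The filter on low counts asks for insertions in as many animals as 1 group holds, so that a locus hit in Syn1Cre alone can enter the test and the counts describe tested members only. The Dlx genes, which start the GABAergic programme, lie in neighbouring pairs that share insertions. Dlx1 rose by a log2 fold change of 2.53 ± 0.13 (SE) and Dlx2 by 1.83 ± 0.16. In the other pair, Dlx5 rose by 2.35 ± 0.14 and Dlx6 by 2.27 ± 0.15. The Dlx5 locus (chromosome 6, 6877801 to 6882068) held 97.7 to 121 CPM in Syn1Cre (median 107) and 15.1 to 27.8 CPM in GFAPCre (median 22.1). Sp9, a zinc-finger factor of subpallial progenitors (chromosome 2, 73271926 to 73275771), held 74.9 to 136 CPM (median 88.3) against 15.9 to 33.0 CPM (median 19.4), a log2 fold change of 2.18 ± 0.19.

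Among factors that follow in the medial lineage, Lhx6 (chromosome 2, 36081950 to 36105992), which specifies somatostatin and parvalbumin interneurons, held 20.8 to 33.9 CPM in Syn1Cre (median 28.8) and 1.73 to 6.12 CPM in GFAPCre (median 3.47). The groups did not overlap, and the log2 fold change was 2.94 ± 0.26 (SE). At these GFAPCre levels Lhx6 entered the test through its Syn1Cre insertions, so the change is given as a description, with no p. Maf, which acts in the development of medial interneurons, held 41.5 to 66.0 CPM in Syn1Cre (median 55.9) against 6.86 to 15.7 CPM in GFAPCre (median 9.70) and rose by 2.46 ± 0.19. Satb1, a chromatin organiser needed by somatostatin cells, rose less, by 0.59 ± 0.10, from a median of 469 CPM to 709 CPM. Sox6, which acts in the same cells and in glial precursors, did not pass the test over its whole locus (-0.06 ± 0.22, adjusted p = 0.93). Syn1Cre animal 5 held 1263 CPM in that locus against at most 702 CPM in the other Syn1Cre animals. With Syn1Cre animals 1 to 3 alone the locus was lower, at -0.65 (adjusted p = 0.012). Of its 14 tested 10 kb windows, 1 was called higher and 0 lower. That window, 4 kb before the gene start, held a mean of 52.0 CPM in Syn1Cre against 15.5 CPM in GFAPCre (log2 fold change 1.76, adjusted p = 5.3e-06).

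Factors of the caudal eminence that could be tested did not pass. Nr2f2 (COUP-TFII) held 227 to 329 CPM in Syn1Cre and 238 to 347 CPM in GFAPCre, a log2 fold change of -0.04 ± 0.11 (adjusted p = 0.89). For Sp8 the change was 0.46 ± 0.27 (adjusted p = 0.39), with 16.4 to 66.9 CPM against 16.8 to 40.0 CPM, and for Nr2f1 it was -0.03. Both pairs of ranges overlapped. Prox1, Npas1, Nkx2-1 and Lhx8 had too few insertions to be tested. Whether medial and caudal factors differ in their change was not tested.

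Most tested genes of GABA synthesis and transport rose as well. Of 6 listed genes 4 were tested, 3 were higher (1.28% of all loci were) and none lower, with a median of 1.25. Gad1 (chromosome 2, 70561303 to 70602014), the main GABA-making enzyme of the cell body, held 31.0 to 54.2 CPM in Syn1Cre (median 41.4) against 5.30 to 22.6 CPM in GFAPCre (median 11.2), a log2 change of 1.80 ± 0.23 (SE). At these GFAPCre levels Gad1 entered the test through its Syn1Cre insertions, so the change is given as a description, with no p. Gad2 rose by 1.95 ± 0.22. Myo3a, whose locus overlaps that of Gad2, shared its insertions. Slc32a1, which encodes the vesicular GABA transporter, entered the test only without Syn1Cre animal 5. Its log2 fold change there, 2.39, is given as a description, with no p. Abat, which breaks GABA down, did not pass (0.12 ± 0.15).

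Among peptides, calcium-binding proteins and other markers of interneuron classes, 12 of 22 listed genes could be tested, and 4 were higher and none lower, beside 1.28% of all loci higher, with a median log2 fold change of 0.26. Sst rose by 2.90 ± 0.27 (SE). At its GFAPCre levels, 1.73 to 12.2 CPM, it entered the test through its Syn1Cre insertions, so the change is given as a description, with no p. Pnoc, the prepronociceptin gene, held 26.3 to 36.7 CPM in Syn1Cre (median 33.5) against 8.77 to 19.1 CPM (median 14.6), a change of 1.17 ± 0.18. Crhbp, which binds corticotropin-releasing hormone and marks somatostatin cells, rose by 1.02 ± 0.23. Reln, the gene of the secreted protein reelin, made by somatostatin and neurogliaform cells and by Cajal-Retzius cells, rose by 0.47 ± 0.12. Cort, the cortistatin gene, was at 0.75 (adjusted p = 0.11), and Lamp5, a marker of neurogliaform cells, at -0.17 (adjusted p = 0.60). Cck, Calb1, Nos1, Sncg, Ndnf and Tacr1 did not pass either. Pvalb, Vip, Npy, Htr3a, Calb2, Tac1, Chodl, Crh, Penk and Cxcl14 had too few insertions to be tested, so that parvalbumin and Vip cells could not be assessed by their name-giving genes.

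Synaptic, adhesion and channel genes of interneurons were raised in large part. All 21 listed genes were tested, 13 were higher and none lower, beside 1.28% of all loci higher, and the median log2 fold change was 0.75. Nxph1 and Nxph2 encode neurexophilins, secreted ligands of alpha-neurexins. The Nxph1 locus (chromosome 6, 8948614 to 9249619) held 232 to 334 CPM in Syn1Cre (median 264) against 51.9 to 84.2 CPM in GFAPCre (median 69.9). Its change was 2.01 ± 0.12 (SE, adjusted p = 3.4e-11), and that of Nxph2 was 2.30 ± 0.19. Erbb4 (chromosome 1, 68031884 to 69108576), the neuregulin receptor that interneurons use to migrate and to receive excitatory synapses, held 433 to 715 CPM (median 558) against 159 to 217 CPM (median 183), a change of 1.61 ± 0.12. No Syn1Cre animal overlapped a GFAPCre animal at these 3 genes.

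Potassium channel genes of fast-spiking cells were part of the set. Kcnc2 and Kcnc1, which encode Kv3 channels, rose by 1.16 ± 0.14 and 0.91 ± 0.15. Kcnip1, a Kv4-binding protein, rose by 1.43 ± 0.13, from a median of 53.9 CPM to 145 CPM. Among receptors, the kainate receptor genes Grik1 and Grik3 rose by 1.38 ± 0.13 and 0.51 ± 0.10, while the AMPA receptor gene Gria4 was at 0.09 (adjusted p = 0.77). Elfn1, which shapes synapses onto somatostatin cells, rose by 0.74 ± 0.15, and Zfp536, a zinc-finger gene, by 0.93 ± 0.10. Igf1, which is made by several interneuron classes and by other cells, rose by 1.31 ± 0.18, Btbd11 by 0.97 ± 0.17 and the vesicle gene Rab3b by 0.75 ± 0.15. Adarb2, a marker of caudal-eminence cells, was at 0.23 (adjusted p = 0.58), and Cxcr4, the chemokine receptor of migrating cells, was lowest at -0.69 ± 0.28 (adjusted p = 0.20). Without Syn1Cre animal 5, 14 of the 21 were higher and none lower, beside 2.42% of all loci higher in that fit.

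**Figure D4:**
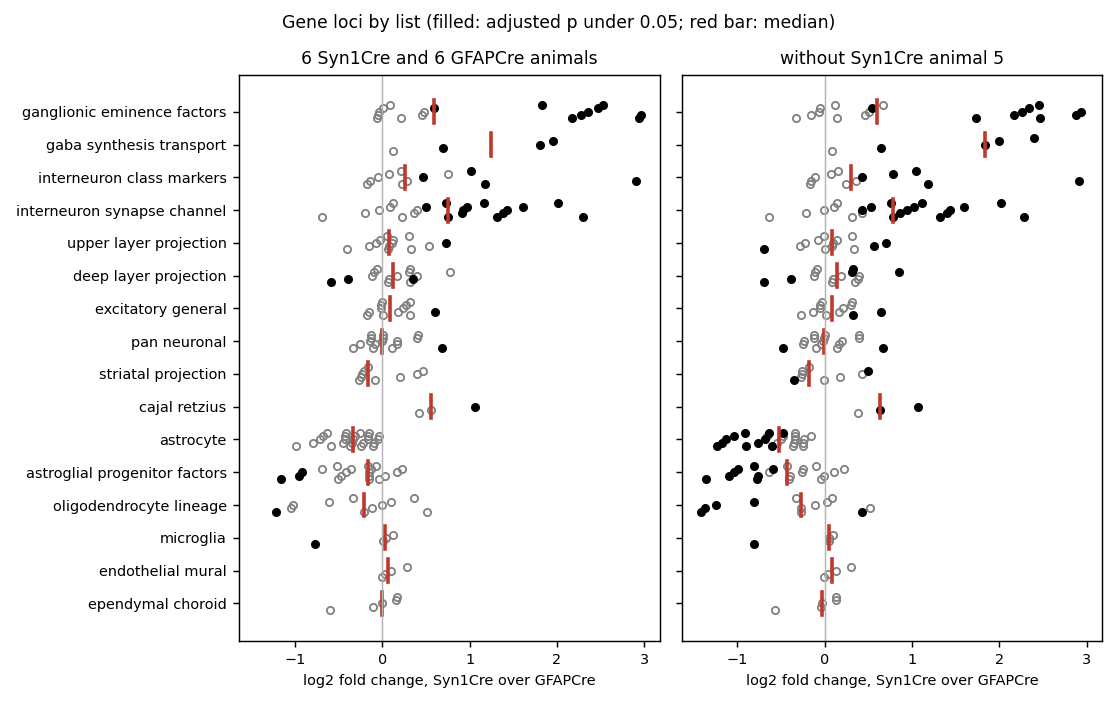
Log2 fold change of Syn1Cre over GFAPCre for each tested member of 16 gene lists, with all 12 animals (left) and without Syn1Cre animal 5 (right), filled where the adjusted p is under 0.05. The medians of the 4 interneuron lists lie at 0.59, 1.25, 0.26 and 0.75 on the left. The astrocyte list has 0 called members on the left and 11, all lower, on the right, where 4.6% of all loci are lower.

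Few loci of projection neurons passed the test. Of 13 upper-layer genes, all tested, 1 was higher and none lower, beside 1.28% of all loci higher, with a median of 0.08. It was Cux2 (chromosome 5, 121857962 to 122050415), a homeobox gene of upper-layer neurons that some interneurons also express, with 194 to 238 CPM in Syn1Cre (median 219) and 101 to 165 CPM in GFAPCre (median 132). The groups did not overlap, and the change was 0.73 ± 0.11 (SE, adjusted p = 0.00034). Rorb and Mef2c, at -0.15 and 0.08, did not pass. Of 18 deep-layer genes 14 were tested, 1 was higher and 2 lower, beside 1.28% and 0.949% of all loci, with a median of 0.12, and 6 of the 14 had an unadjusted p under 0.05. Bcl11b (Ctip2), which acts in layer V neurons and in interneurons, rose by 0.36 ± 0.09. Etv1, an ETS factor of layer V, fell by 0.58 on the log2 scale, with 128 to 269 CPM against 237 to 317 CPM, ranges that overlap through Syn1Cre animal 5. Ldb2, a LIM-domain cofactor of deep-layer neurons, fell by 0.39 on the log2 scale, with 472 to 636 CPM against 642 to 743 CPM. Fezf2, Foxp2 and Tbr1, at 0.07, 0.08 and 0.31, did not pass. With Syn1Cre animals 4 to 6 alone Cux2 still passed (0.68, adjusted p = 0.015). In that fit 0 deep-layer genes passed, beside 0.549% of all loci higher and 0.0591% lower. Etv1 was at -0.29 there (adjusted p = 0.58) and at -0.95 with animals 1 to 3 alone. Bcl11b passed neither with animals 1 to 3 alone (adjusted p = 0.064) nor with animals 4 to 6 alone (adjusted p = 0.095).

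Of 12 general glutamatergic genes 1 was higher and none lower, beside 1.28% and 0.949% of all loci. Their median was 0.09, and 4 of the 12 had an unadjusted p under 0.05. Slc17a6, which encodes the vesicular glutamate transporter VGLUT2, held 90.6 to 163 CPM in Syn1Cre (median 125) against 62.5 to 98.0 CPM (median 87.7), a change of 0.60 ± 0.13 (SE, adjusted p = 0.0088). Its groups overlapped through Syn1Cre animal 5, the lowest of its group. Slc17a6 passed with Syn1Cre animals 1 to 3 alone (0.69, adjusted p = 0.00063) but not with animals 4 to 6 alone (0.49, adjusted p = 0.19). Slc17a7, the gene of the main cortical transporter VGLUT1, was at -0.17 ± 0.23 (adjusted p = 0.75) with few insertions. Of 16 genes shared by neurons, 1 was higher and none lower, beside the same shares of all loci, with a median of 0.00. Elavl2, an RNA-binding protein gene, rose by 0.68 ± 0.10, from a median of 185 CPM to 309 CPM. Rbfox3 (NeuN), Snap25 and Syt1, at 0.11, 0.01 and -0.10, did not pass.

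Lists of neurons that lie outside the cortex or are transient in it held few calls. None of the 9 tested genes of striatal projection neurons, of 12 listed, passed the test in edgeR with all 12 animals, 0 in either direction, as in DESeq2, and 4 had an unadjusted p under 0.05. Their median was -0.16, from -0.27 for Meis2 to 0.47 for Drd1. Without Syn1Cre animal 5, Drd1 was higher, at 0.50 (adjusted p = 0.022), beside 2.42% of all loci higher. Meis2 was lower in that fit, at -0.35 (adjusted p = 0.036), beside 4.6% of all loci lower. Meis2 was also lower with Syn1Cre animals 1 to 3 alone (adjusted p = 0.033), beside 8.51% of all loci lower. Of 8 genes of Cajal-Retzius cells 3 were tested, 1 was higher and none lower, beside 1.28% of all loci higher. It was Cacna2d2, a calcium channel subunit gene also used by interneurons, which rose by 1.07 ± 0.15 (SE). Trp73, which defines Cajal-Retzius cells more narrowly, was at 0.42 ± 0.28 (adjusted p = 0.45).

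Astrocyte genes lay below 0, and how many of them passed the test turned on 1 animal. Of 25 listed genes 24 were tested, and all 24 had a log2 fold change below 0, with a median of -0.34 beside 0.00 for all loci. None passed the test in edgeR with all 12 animals, or in DESeq2, while 4 of the 24 had an unadjusted p under 0.05 in edgeR. Without Syn1Cre animal 5, 11 of the 24 were lower and none higher, beside 4.6% of all loci lower, and the median was -0.52. These 11, named after their values were seen, were Slc1a3, Cst3, Aldoc, Pla2g7, Aqp4, Sox9, Gja1, Hepacam, Slc4a4, Atp13a4 and Glul. Cst3, which encodes the protease inhibitor cystatin C, held 48.6 to 97.5 CPM in GFAPCre (median 74.1) and 13.1 to 47.7 CPM in the other 5 Syn1Cre animals, with 93.0 CPM in Syn1Cre animal 5. Its log2 fold change was -0.98 ± 0.27 (SE, adjusted p = 0.053) with all animals and -1.23 (adjusted p = 0.00042) without that one. Sox9, a glial transcription factor, held 34.3 to 78.3 CPM against 18.6 to 48.4 CPM, and 110 CPM in Syn1Cre animal 5. With Syn1Cre animals 1 to 3 alone, 14 of 25 tested members were lower, beside 8.51% of all loci, with a median of -0.80. With animals 4 to 6 alone, the median was -0.08 and 0 passed. With all animals and the pool as a random block, 1 was lower, Cst3 at -1.16 (adjusted p = 0.026), beside 88 of all 11278 loci.

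Factors shared by radial glia and astrocytes gave 3 lower loci of 19 tested and none higher, with a median of -0.16, beside 0.949% of all loci lower. Id3 (chromosome 4, 136143822 to 136145392), an inhibitor of basic helix-loop-helix factors, held 55.6 to 87.0 CPM in GFAPCre (median 70.2) and 12.5 to 71.5 CPM in Syn1Cre (median 27.7). The top Syn1Cre value was that of animal 5, and the other 5 lay at or below 44.5 CPM. Id3 fell by 1.16 on the log2 scale (SE 0.24, adjusted p = 0.0088). Pax6, the paired-box factor of cortical radial glia, fell by 0.95 on the log2 scale, and Emx2, a homeobox gene of the dorsal telencephalon, by 0.92. With the pool as a random block (limma), Id3 and Pax6 still passed and Emx2 did not (adjusted p = 0.080). Without Syn1Cre animal 5 the list gave 8 lower and none higher, beside 4.6% of all loci lower. That fit added Nfia, Zbtb20, Fabp7, Tnc and Gli3. With Syn1Cre animals 1 to 3 alone, 10 of the 19 were lower, beside 8.51% of all loci lower in that fit. None of the 3 called genes passed with Syn1Cre animals 4 to 6 alone, where Id3 was at -0.61 (adjusted p = 0.28) and Pax6 at -0.59 (adjusted p = 0.43).

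In the oligodendrocyte lineage 11 of 17 listed genes were tested, 1 was lower and none higher, beside 0.949% of all loci lower, with a median of -0.20. Nkx2-2 (chromosome 2, 147176485 to 147195434), a homeobox factor of oligodendrocyte precursors, held 17.3 to 48.7 CPM in GFAPCre (median 35.1) and 6.27 to 35.8 CPM in Syn1Cre (median 14.5), a log2 change of -1.22 ± 0.28 (SE). It entered the test through its GFAPCre insertions, so the change is given as a description, with no p. Olig1 and Olig2, which direct the lineage and are also found in astroglial progenitors, were at -1.04 ± 0.34 and -1.02 ± 0.34 (adjusted p = 0.11 and 0.12). Without Syn1Cre animal 5 they passed, at -1.36 and -1.24. The myelin genes Mbp and Mobp were at -0.11 and 0.10 and did not pass. Mog, at 0.51 (adjusted p = 0.26), passed with Syn1Cre animals 1 to 3 alone, at 0.83. Of 4 microglia genes tested of 13 listed, 1 was lower, beside 0.949% of all loci lower. It was P2ry12, a purine receptor gene that lies inside Med12l and shares its insertions (-0.77 ± 0.17, adjusted p = 0.010). Aif1 and Spi1 did not pass. The 4 tested genes of vessels and the 5 of ependyma and choroid plexus gave 0 calls in edgeR and in DESeq2, with medians of 0.07 and 0.00, and 0 and 1 of them had an unadjusted p under 0.05.

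Some loci outside the lists were among the largest changes. The 16 highest and 12 lowest called loci with groups apart and a mean at or above the median of loci tested, 31.6 CPM, were taken, a locus that overlaps one already taken being passed over, as Dlx2 and Dlx6 were. Besides the list members above, the highest held Tmem132c (1.56), Cntnap3 (1.29), Kcnmb2 (1.20), Rpp25 (1.15), 1600014C10Rik (1.10) and Eya4 (1.09), given as log2 fold changes. Kcnmb2 encodes an auxiliary subunit of large-conductance potassium channels, and Cntnap3 a contactin-associated protein. The Kcnmb2 locus held 171 to 198 CPM in Syn1Cre (median 180) and 58.3 to 110 CPM in GFAPCre (median 74.0). Eya4, a transcriptional co-activator, held 103 to 142 CPM against 55.1 to 71.4 CPM.

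The 12 lowest held Vit, Smc4, Vezf1, BC052040, Taf1b, Lrpprc, Nuf2, Tmem156, Suco, Mybl1, Lamtor3 and Pkib, from -1.10 to -0.60 in log2 fold change. Vit, which encodes the extracellular matrix protein vitrin (chromosome 17, 78508051 to 78627409), held 25.1 to 48.4 CPM in Syn1Cre (median 36.8) and 65.9 to 99.0 CPM in GFAPCre (median 76.8), a change of -1.10 ± 0.15 (SE, adjusted p = 6.4e-05). Smc4, a condensin subunit gene that shares its insertions with Ift80 and Trim59, held 25.1 to 54.8 CPM against 66.5 to 120 CPM. Vit, Smc4 and Vezf1 also passed with Syn1Cre animals 4 to 6 alone, at -0.94, -0.85 and -0.79. Nuf2, a kinetochore gene, and Mybl1, a Myb factor, were at -0.67 and -0.61 with all animals. With the pool as a random block (limma), Nuf2 and Suco no longer passed (adjusted p = 0.070 and 0.051), while the others of the 12 did.

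Runs of 50 kb windows called in 1 direction, joined where at most 1 window lay between, showed where changes extend beyond a single window. There were 264 higher runs, of which 21 held 3 or more windows, and 236 lower runs, of which 10 did. The 8 longest higher runs all lay on genes: Erbb4, Nxph1, Zfp536, Grik1, Kcnc2, Kcnmb2, Cux2 with Myl2, and Kcnip1. The longest held 9 called windows over chr1:68650001-69150000, the part of Erbb4 near its start. Its called windows together held 312 to 507 CPM in Syn1Cre against 106 to 124 CPM in GFAPCre. The run on Nxph1 held 6 windows over chr6:8900001-9250000, with 246 to 318 CPM against 52.4 to 76.4 CPM.

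The 8 longest lower runs lay largely between genes, 5 of them over no protein-coding gene body. The longest held 8 windows over chr17:9500001-10000000, a stretch with Pabpc6 as its sole protein-coding gene and 206 kb from Qk, which encodes an RNA-binding protein of glia. Its windows held 394 to 1031 CPM in GFAPCre and 117 to 623 CPM in Syn1Cre, with animal 5 at 623 and the others at or below 303. Among gene-free runs, chr11:112800001-113000000 begins 12 kb from Sox9, chr13:48100001-48250000 ends 11 kb from Id4, an Id factor of astroglial progenitors, and chr7:73100001-73350000 ends 26 kb from Rgma, a guidance molecule gene. A further one, chr3:35200001-35450000, lies 548 kb from Sox2, its nearest gene on that side. Their mean log2 fold changes were -1.12, -1.19, -1.18 and -1.16. In each of these 4 runs Syn1Cre animal 5 lay within the GFAPCre range and the other 5 lay below it, and every window of the 8 lower runs was called without that animal as well. Runs on Ncam2 and Mms22l, at -0.59 and -0.78, and one between Tmem182 and Pou3f3, at -0.99, complete the 8.

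At Dlx1, Nxph1 and Erbb4 the highest Syn1Cre bin lay near the gene start. Around Dlx1, the 10 kb bin just before the start held 196 ± 26.9 CPM in Syn1Cre and 24.5 ± 8.13 in GFAPCre (mean ± SD, n = 6 each, no TMM scaling). The highest GFAPCre bin of this stretch lay 85 kb past the Dlx1 start, with 38.6 ± 22.1 there against 19.2 ± 13.4 in Syn1Cre. In the first 10 kb of Nxph1 the values were 53.0 ± 4.90 and 10.9 ± 3.35, and in the first 10 kb of Erbb4 58.8 ± 8.21 and 9.33 ± 3.75. The highest GFAPCre bin of Erbb4 lay 85 kb inside the gene, with 10.5 ± 3.48 there against 35.9 ± 8.18 in Syn1Cre. In Cux2 the highest bin of both groups lay 105 kb inside the gene, with 47.6 ± 9.98 against 23.2 ± 5.32. At Slc1a3 the first 10 kb held 97.4 to 219 in GFAPCre and 59.7 to 97.5 in Syn1Cre other than animal 5, which held 268. The main peak near Pax6 lay 55 kb past its start, with 36.8 to 116 in GFAPCre, 12.2 to 47.3 in Syn1Cre other than animal 5, and 125 in that animal. Over 10 kb windows, 521 of 18215 (2.86%) were called, 235 higher (1.29%) and 286 lower (1.57%).

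**Figure D5:**
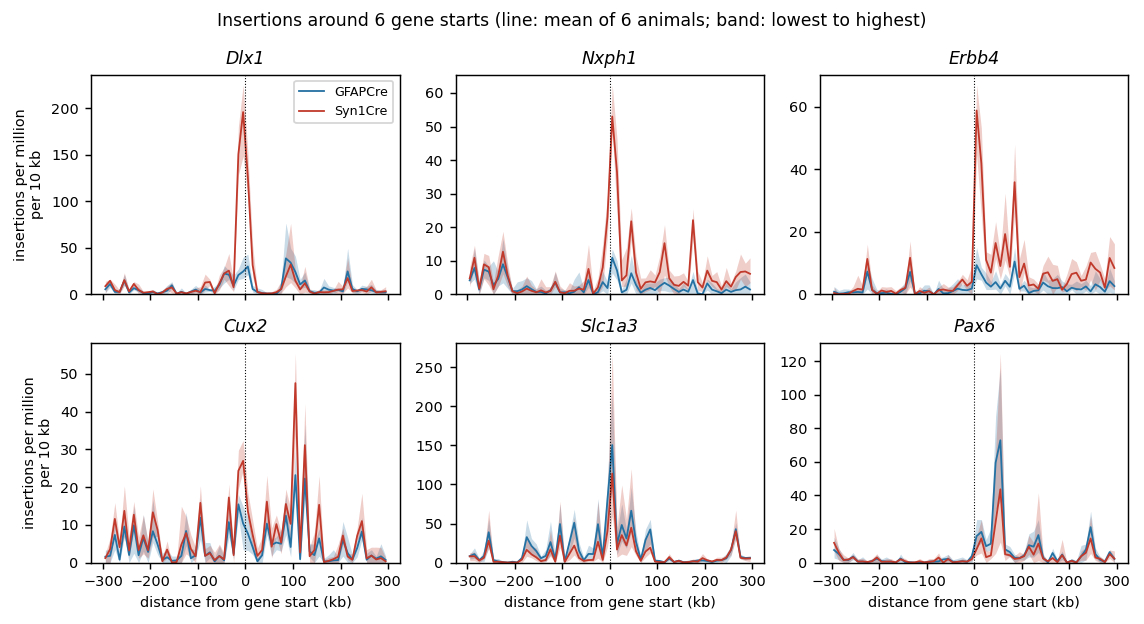
Insertions as CPM without TMM scaling in 10 kb bins (y axis) by distance from the gene start in the gene's own direction (x axis, kb), as the mean of 6 animals (line) with the range from lowest to highest (band), for GFAPCre in blue and Syn1Cre in red. The Syn1Cre band stands clear of the GFAPCre band at the starts of Dlx1, Nxph1 and Erbb4, while at Slc1a3 and Pax6 the bands overlap, with Syn1Cre animal 5 at the top of its band at the peaks.

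Since insertions need TTAA, single sites can be read in promoter sequence. The RefSeq promoter stretches of GRCm38.p6 run over 300 bases across a gene start, and 52.3% of the 31396 on chromosomes 1 to 19 hold TTAA on the strand shown, which reads the same on both strands. The stretches of 5 genes are shown, from 5' to 3' in the direction of the gene with TTAA in capitals, because each carried insertions on its TTAA and stands for 1 of the gene groups above. Where a gene has several starts, that with the most insertions is shown. They are those of Sst (chr16:23890795-23891094, minus strand), Lhx6 (chr2:36104011-36104310, minus strand), Cux2 (chr5:122047776-122048075, minus strand), Slc1a3 (chr15:8710758-8711057, minus strand) and Pax6 (chr2:105668646-105668945, plus strand).
Sst: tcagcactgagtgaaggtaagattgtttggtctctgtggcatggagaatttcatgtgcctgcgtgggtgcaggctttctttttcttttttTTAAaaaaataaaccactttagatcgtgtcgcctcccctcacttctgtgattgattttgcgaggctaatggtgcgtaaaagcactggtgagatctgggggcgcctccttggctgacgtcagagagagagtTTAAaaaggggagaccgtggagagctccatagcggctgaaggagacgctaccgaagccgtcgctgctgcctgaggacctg
Lhx6: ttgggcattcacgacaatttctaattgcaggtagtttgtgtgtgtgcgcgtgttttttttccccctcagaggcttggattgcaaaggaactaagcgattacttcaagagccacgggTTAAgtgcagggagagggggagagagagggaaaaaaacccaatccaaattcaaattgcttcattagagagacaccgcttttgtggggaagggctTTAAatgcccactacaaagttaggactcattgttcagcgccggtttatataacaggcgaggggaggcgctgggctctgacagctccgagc
Cux2: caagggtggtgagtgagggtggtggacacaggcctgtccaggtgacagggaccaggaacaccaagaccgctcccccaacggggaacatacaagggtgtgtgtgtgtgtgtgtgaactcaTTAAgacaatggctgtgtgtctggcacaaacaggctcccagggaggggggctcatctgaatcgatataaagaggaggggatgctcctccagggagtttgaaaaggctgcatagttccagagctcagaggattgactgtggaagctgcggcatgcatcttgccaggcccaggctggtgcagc
Slc1a3: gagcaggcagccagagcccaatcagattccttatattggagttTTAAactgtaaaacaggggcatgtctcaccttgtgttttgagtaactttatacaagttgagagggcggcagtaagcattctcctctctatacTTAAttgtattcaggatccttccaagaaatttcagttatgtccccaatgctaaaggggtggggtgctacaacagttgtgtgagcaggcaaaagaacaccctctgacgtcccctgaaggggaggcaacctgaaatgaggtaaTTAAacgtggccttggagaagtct
Pax6: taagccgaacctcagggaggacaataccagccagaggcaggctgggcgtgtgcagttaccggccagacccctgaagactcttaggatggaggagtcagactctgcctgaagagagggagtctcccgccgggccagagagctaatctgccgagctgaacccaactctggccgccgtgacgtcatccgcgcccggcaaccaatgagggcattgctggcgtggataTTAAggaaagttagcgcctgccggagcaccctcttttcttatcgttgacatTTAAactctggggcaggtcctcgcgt

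The TTAA sites of the Sst stretch held 10 insertions from 5 Syn1Cre animals and 1 from GFAPCre. Of these, 7 and 0 lay on the site at base 91 and 3 and 1 on that at base 221, counted from the 5' end of the stretch. In Lhx6 the site at base 211 held 6 insertions from 4 Syn1Cre animals and 0 from GFAPCre, and that at base 117 held none. The single site of Cux2, at base 120, held 12 insertions from all 6 Syn1Cre animals and 4 from 3 GFAPCre animals. In Slc1a3 the 3 sites together held 11 insertions in Syn1Cre and 24 in GFAPCre, and at base 44 alone 2 and 9. In Pax6 the sites held 0 insertions in Syn1Cre and 10 in GFAPCre, 8 of them at base 224 from 4 animals. The promoter stretches listed for Dlx1 and Gad2 hold no TTAA, so that insertions at these loci lie outside them. These counts are few and part of the locus counts above, and are given as a description.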

How the data were processed

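Each deposited table lists transposon insertions, 1 line per insertion, with position, strand and read count. The authors mapped reads to mm10, and Novoalign and Bowtie2 are named, per the submitters' processing notes, with versions and roles not given in the sources used here. The counts used are lines of the deposited tables per 50 kb window, 10 kb window or locus (the body of a protein-coding gene and 10 kb to either side), made here on chromosomes 1 to 19. A position seen in several cortex parts is listed more than once and was counted each time. Gene positions came from RefSeq GRCm38.p6.

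The 6 Syn1Cre and 6 GFAPCre animals were compared with edgeR 4.0.16 in R 4.3.3 (TMM scaling, filterByExpr, quasi-likelihood test, Benjamini-Hochberg adjustment over all features tested, threshold 0.05). Each numbered replicate was read as 1 animal. Nothing in the labels says more about litters, so p-values measure the spread between these animals, which includes differences between pools. The main fit treats the animals as independent. Syn1Cre animals 1 to 3, which share pools, correlated at 0.39 to 0.45 with each other (log2 CPM, centred on each locus). Their correlations with Syn1Cre animals 4 and 6 were -0.01 to 0.10, and with animal 5 -0.33 to -0.29. Alternatives used DESeq2 1.42.0 and limma 3.58.1, other scalings, filters and locus extents, distinct positions, insertions with at least 2 reads, thinning to 432664 insertions, sequencing pools and animals left out. The members and gene lists (16 lists, 249 genes, 186 tested) were chosen with earlier results of these data known.

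Named loci are the 16 highest and 12 lowest called loci whose groups do not overlap and whose mean is at or above the median of loci tested, a locus that overlaps one already taken being skipped. Named too are list members past the threshold, the highest and lowest member of each list, the 8 longest runs of windows in each direction, and the 4 markers. Other list members and genes named without Syn1Cre animal 5 were chosen after their values were seen. On simulated counts with 200 changed loci the fit recovered 99.5% of 3-fold changes and 40% of 1.5-fold changes. In 50 kb windows it recovered 100% and 16%. In 10 kb windows it recovered 93% and 1%. Some list members counted here are not reported by name. The libraries held 432664 to 1468600 insertions, which sets the counting error.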

Additional observations from a re-analysis of the deposited data

Results flagged for a closer look

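In groups of 6 animals, 15 values stood off from the rest of their group by Dixon's criterion at 95%, of 190 groups of values tested, and chance gives about 1 in 20. Syn1Cre animal 5 gave 8 of them. At single loci it held 815 CPM at Slc1a3 against 147 to 278 in the other Syn1Cre animals, 300.3 at Dio2 against 78.6 to 126, 729 at Pou3f2 against 240 to 370 and 1263 at Sox6 against 425 to 702. At Dlx2 it held 160 CPM against 92.8 to 110. In summed CPM without TMM scaling it held 4502 at astrocyte loci against 1488 to 1978, 14635 at astroglial progenitor factors against 6076 to 7860, and 6453 at ganglionic eminence factors against 4820 to 5134.

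The other 7 values were spread over 6 animals. Syn1Cre animal 6 held 136 CPM at Sp9 against 74.9 to 95.3 in its group, and Syn1Cre animal 3 held 5221 summed CPM at deep-layer loci against 4639 to 4816. GFAPCre animal 6 held 32.2 CPM at Kcnip1 against 50.3 to 56.9. GFAPCre animal 5 held 6.94 CPM at Slc17a7 against 13.8 to 16.5, and 103 summed CPM at microglia loci against 126 to 137. GFAPCre animal 4 held 52.6 CPM at Aif1 against 33.1 to 39.9, and GFAPCre animal 2 held 70.1 summed CPM at Cajal-Retzius loci against 47.7 to 54.1.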

How the results depend on the processing

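Across the alternatives run, each of the 59 named loci past the threshold kept its sign. It kept its call in 645 of 708 values with 1 animal left out and in 606 of 689 other values. The count of called loci, 251, was 164 with distinct positions, 113 after thinning to equal insertions, 1569 with Syn1Cre animals 1 to 3 alone and 72 with animals 4 to 6 alone. Leaving out 1 animal gave 132 (without Syn1Cre animal 2) to 816 (without Syn1Cre animal 5) loci. It was 273 with total insertions for scaling, of which 173 were higher, 302 with no filter, 197 with DESeq2 and 192 with the pool as a random block. The count of called 50 kb windows, 643, was 402 with insertions of at least 2 reads, 182 after thinning, 2955 with Syn1Cre animals 1 to 3 and 133 with animals 4 to 6. Leaving out 1 animal gave 326 (without Syn1Cre animal 2) to 1899 (without Syn1Cre animal 5) windows. Higher and lower windows numbered 722 and 1177 without Syn1Cre animal 5, 365 and 581 with no filter, 1122 and 1833 with Syn1Cre animals 1 to 3, and 118 and 15 with animals 4 to 6, against 346 and 297 in the main comparison. Moves of over 1.5 times also came without Syn1Cre animals 1 (368) or 3 (374) and without GFAPCre animals 1 (330) or 4 (391). The 521 called 10 kb windows fell to 216 with distinct positions. The ratio of geometric mean insertions, 1.06, turned to 0.851 with insertions of at least 2 reads, and ranged from 0.972 to 1.22 with 1 animal left out. It was below 1 without GFAPCre animal 3 (0.999), Syn1Cre animal 4 (0.972) or Syn1Cre animal 6 (0.985). Apart from thinning and left-out animals, which reduce the data, the cause was not tested.

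Same-numbered animals did not deviate together (correlations across 50 kb windows from -0.203 to 0.182), so the numbers do not pair the samples. With the replicate number as a block, 189 loci, 449 windows of 50 kb and 269 of 10 kb were called. Changes near 1.5-fold were often missed at this depth in simulated counts.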
